A study of Mus musculus with 8 samples.

Results

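The immediate-early genes described here are Npas4, Fos, Fosb, Junb, Arc, Egr1, Egr2, Egr4, Nr4a1 and Nr4a3. They were found by their symbols among the 54752 genes of the count tables, each of the 10 matched 1 row, and all 10 passed the filter on low counts, as did 17136 genes in all. Cortex from the right hemisphere of adult male C57BL/6 mice of WT genotype was sequenced as RNA 3 weeks after a sham operation (4 mice) or bilateral carotid artery stenosis (BCAS, 4 mice), and each library came from a single mouse. In BCAS a microcoil is placed around each common carotid artery, here a narrower one on the right and a wider one on the left, so that the sampled cortex lies on the side of the tighter stenosis. Both groups shared strain, genotype, tissue and time, and the sham mice were operated on in the same way but received no coils. BCAS is a model of chronic cerebral hypoperfusion, and the libraries hold whole cortical tissue rather than sorted cells. Read pairs were counted per gene, and levels are given in CPM, the counts of a gene brought to a common library total with edgeR's TMM scaling. Totals ranged from 16759364 to 21794435 counts per library. With 3 counts as the limit that a count of 0 allows, the shallowest library could not show levels under 0.187 CPM, which covers counting error only.

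Immediate-early genes are transcribed within minutes of a stimulus, without new protein synthesis, by factors that are already present in the cell. In cortical neurons, calcium entry through NMDA receptors and L-type channels activates kinases that act on CREB, on serum response factor with its partners, and on MEF2. Most of the proteins made are transcription factors that switch on later genes, whereas Arc acts directly at the synapse. Their RNAs are short-lived, so a tissue sample holds a trace of the minutes before it was taken.

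The tables do not hold sequence, so promoter windows were taken from a set of RefSeq start sites on GRCm38.p6. The set used held windows for 8 of the 10 genes and none for Arc and Egr1. The windows are shown because the cAMP response element is among the known links of such genes to calcium and cAMP signals. The 250 bases before the start were searched on both strands for the CREB-binding pentamer of the cAMP response element, TGACG or CGTCA. It was present in 7 of the 8 windows and at least 2 times in 5 of them, against 17.8% and 3.90% of 32817 RefSeq windows of the same length. Printed below 5′ to 3′, with the pentamers in capitals, are the windows of Npas4 (chr19:4989972-4990221, minus strand), Fos (chr12:85473640-85473889, plus strand) and Egr4 (chr6:85513590-85513839, minus strand), and the 226 bases before Egr2 (chr10:67535249-67535474, plus strand), the 1 gene of the 8 without the pentamer.
Npas4: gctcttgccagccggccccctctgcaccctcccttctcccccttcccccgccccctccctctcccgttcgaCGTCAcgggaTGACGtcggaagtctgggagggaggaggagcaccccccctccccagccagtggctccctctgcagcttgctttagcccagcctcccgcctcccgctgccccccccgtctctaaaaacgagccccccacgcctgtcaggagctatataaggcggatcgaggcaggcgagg
Fos: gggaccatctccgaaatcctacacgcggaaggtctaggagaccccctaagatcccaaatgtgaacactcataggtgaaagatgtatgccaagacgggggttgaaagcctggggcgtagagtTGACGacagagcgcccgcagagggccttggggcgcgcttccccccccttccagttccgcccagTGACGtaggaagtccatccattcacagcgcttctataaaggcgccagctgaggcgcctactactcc
Egr4: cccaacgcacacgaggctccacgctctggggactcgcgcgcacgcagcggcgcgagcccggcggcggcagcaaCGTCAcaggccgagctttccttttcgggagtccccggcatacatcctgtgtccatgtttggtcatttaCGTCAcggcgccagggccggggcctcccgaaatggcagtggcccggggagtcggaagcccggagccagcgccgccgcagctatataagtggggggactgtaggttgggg
Egr2: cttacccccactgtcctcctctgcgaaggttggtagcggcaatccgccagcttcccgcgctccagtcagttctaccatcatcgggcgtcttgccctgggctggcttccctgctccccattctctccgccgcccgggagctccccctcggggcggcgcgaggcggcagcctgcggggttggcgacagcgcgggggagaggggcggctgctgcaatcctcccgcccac
In Npas4 the pentamers began 179 and 169 bases before the start, and in Fos 129 and 66 bases before it. Nr4a1 and Nr4a3 held 4 each, Egr4 held 2, and Fosb and Junb held 1 each. The Nr4a1 window belongs to a start site 12577 bases inside the gene as counted in the tables. Egr2 had 5 windows, and only the one nearest to the start of the counted gene was searched. The exact letters TATAAA were found in Fos alone, 33 bases before the start, whereas 12.4% of all windows held them on either strand. Close variants of these letters, as in the Npas4 and Egr4 windows printed above, were not searched. The full palindrome TGACGTCA, which contains both pentamers, the serum response element core known as the CArG box, the EGR site GCGTGGGCG, the AP-1 site TGANTCA and the NGFI-B site AAAGGTCA were in 0 of the 8 windows. A match describes letters in this window only, and sites farther away were not searched.

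The libraries differed in more than the operation. The markers of excitatory cortical neurons were present in every library, with Slc17a7, the vesicular glutamate transporter, at 1545 to 1687 CPM in sham and 485 to 1315 CPM in BCAS mice. Sham mouse 3 stood apart by markers of the choroid plexus. Ttr, made by the choroid plexus epithelium, read 696 CPM there against 7.72 to 34.2 CPM in the other sham mice and 16.7 to 44.4 CPM in BCAS mice. All 6 choroid plexus markers were highest among sham mice in mouse 3, and their summed level was 779 CPM against 18.2 to 51.4 CPM in the other 3. In the same library 7 of 9 oligodendrocyte markers were lowest among sham mice, with Mbp, a myelin protein gene, at 1688 CPM against 2711 to 2874 CPM. By markers of the striatum, sham mouse 2 and BCAS mouse 4 stood apart, each highest in its group for 8 of 8 genes, with summed levels of 677 CPM against 380 to 478 CPM and of 1064 CPM against 521 to 557 CPM. BCAS mice had summed microglia and macrophage markers of 1893 to 7421 CPM against 381 to 464 CPM in sham mice, and summed pan-neuronal markers of 4256 to 9302 against 10785 to 12301 CPM. In bulk tissue, fewer cells of a type and less RNA per cell cannot be told apart. The part of these differences in the results below was not tested beyond the values given beside them.

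Of the 10 immediate-early genes, Npas4 was the 1 that passed the test, with a lower level in BCAS than in sham cortex, although 1 BCAS mouse overlapped the sham mice and the call was lost in 5 of the 8 fits that left out a mouse. Genes were tested by the quasi-likelihood test of edgeR, Benjamini-Hochberg adjusted over 17136 genes, with limits of 0.05 for the adjusted p and 1 for the size of the log2 fold change. Past both limits 1 of the 10 was lower, where 1.28% of all tested genes were, and 0 of 10 were higher, where 11.0% were. At the adjusted p alone the count was the same, 1 lower and 0 higher, against 12.8% and 19.2% of all genes, so that the share of lower genes among the 10 was near that of all genes. The unadjusted p was under 0.05 for 1 of the 10, again Npas4, and for 46.2% of all tested genes. DESeq2, limma-voom and limma on log2 CPM also placed 1 gene lower and 0 higher. In all 10 genes the sham and BCAS libraries overlapped, whereas 16.3% of all genes lay wholly lower and 18.5% wholly higher in BCAS mice. The median log2 fold change of the 10 genes was -0.76, beside -0.01 over all tested genes. All 10 estimates were below 0, where 50.5% of all genes were, but 4 of the 10 were above 0 when sham mouse 3 was left out, as were 3 of 10 when the libraries were scaled by pan-neuronal genes, which moved the median of all genes to 0.80 and that of the 10 genes to -0.15. The plot of each gene by library shows these values, with the mice numbered as in the labels.

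**Figure D1:**
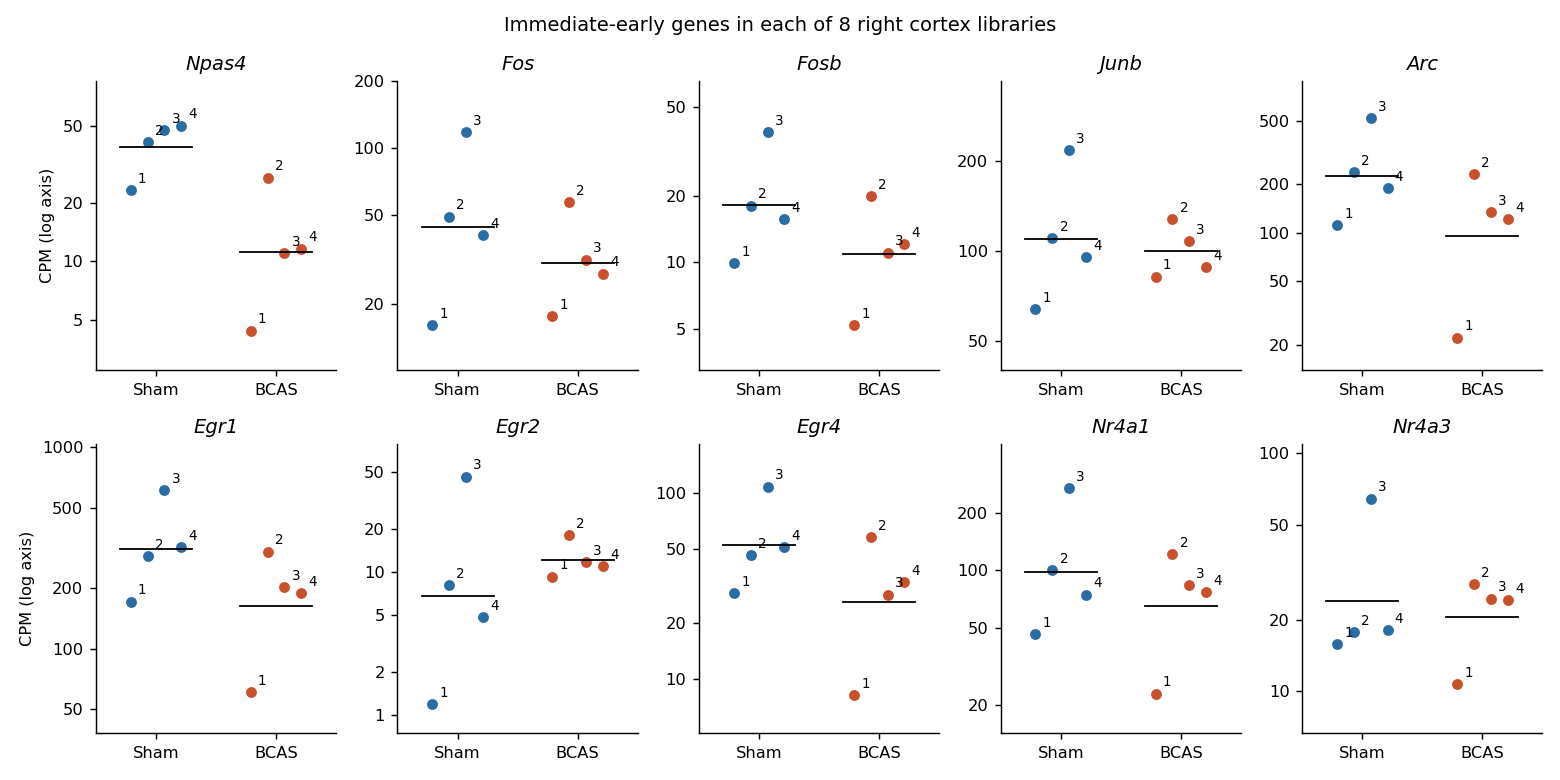
Normalised level in CPM (log axis) of the 10 immediate-early genes in the 4 sham libraries (blue) and the 4 BCAS libraries (orange), 1 point per mouse with its number, and the geometric mean of each group as a line. Sham mouse 3 is the highest sham point in 9 panels and sham mouse 1 the lowest in 10, and in each panel BCAS mouse 2 is the highest and BCAS mouse 1 the lowest BCAS point.

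Npas4 (ENSMUSG00000045903.8, chr19:4984355-4989971, minus strand, mm10, 8 exons) encodes a neuronal bHLH-PAS transcription factor that responds to calcium entry and adjusts inhibitory synapses. Exon numbers here and below count the blocks left after overlapping exons of all transcripts of a gene were merged. They can differ from the exon number of a single transcript. From mouse 1 to mouse 4 its level was 23.3, 41.4, 47.5 and 50.2 CPM in the sham group and 4.40, 27.1, 11.1 and 11.7 CPM in the BCAS group. Only BCAS mouse 2 reached into the sham range, where it lay above sham mouse 1. The mean was 40.6 ± 12.1 CPM in sham and 13.6 ± 9.61 CPM in BCAS mice (SD, n = 4 each), which is 3.00-fold lower by the fit. The log2 fold change was -1.58 (SE 0.47) and the adjusted p 0.0336 by the edgeR test. Unlike the other 9 genes, Npas4 was not highest in sham mouse 3, and its estimate without that mouse was -1.51 (SE 0.53). The adjusted p was then 0.0718 by edgeR. It was also above 0.05 without sham mouse 2 (0.0765), sham mouse 4 (0.0829), BCAS mouse 3 (0.0861) and BCAS mouse 4 (0.0832), so that the call held in 3 of the 8 edgeR fits that each lacked 1 mouse. Over those 8 fits the log2 fold change lay between -2.17 and -1.28. Over 11 other settings with all mice it lay between -1.84 and -1.02, with adjusted p-values of 0.00338 to 0.0389.

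Fos, Fosb and Junb encode subunits of AP-1, the dimeric factor formed by a Fos and a Jun protein. None of the 3 passed the test. Fos (ENSMUSG00000021250.13, chr12:85473890-85477273, plus strand, 4 exons) read 16.0, 49.2, 118 and 40.6 CPM in the sham group and 17.5, 57.4, 31.5 and 27.3 CPM in the BCAS group, in the order of the mouse numbers, as for all genes that follow. The whole BCAS range thus fell inside the sham range. The log2 fold change was -0.75 (SE 0.55, adjusted p = 0.318, edgeR), and without sham mouse 3 it was -0.08 (SE 0.46). Fosb (ENSMUSG00000003545.3, chr7:19302696-19310051, minus strand, 2 exons), whose protein and its stable splice form accumulate with repeated stimulation, had the same highest and lowest mice as Fos in each group, at a lower level. It ran from 9.89 to 38.6 CPM in sham and from 5.23 to 19.9 CPM in BCAS mice. Its log2 fold change was -0.77 (SE 0.47, adjusted p = 0.225, edgeR), and -0.27 (SE 0.41) without sham mouse 3. Junb (ENSMUSG00000052837.6, chr8:84974484-84978718, minus strand, 3 exons) had the smallest log2 fold change in size of the 10, -0.26 (SE 0.33, adjusted p = 0.564, edgeR). Its level was 63.8, 110, 218 and 95.2 CPM in sham and 82.0, 128, 108 and 88.3 CPM in BCAS mice, so that all 4 BCAS mice lay above sham mouse 1 and below sham mouse 3. Of the exon bases of Junb 7.52% are shared with Prdx2 on the opposite strand, and the counting took no account of strand. The other 9 genes shared no exon base with another gene.

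Egr1, Egr2 and Egr4 encode zinc-finger factors that bind the GC-rich EGR site and are switched on through serum response factor. Egr1 (ENSMUSG00000038418.7, chr18:34859823-34864984, plus strand, 2 exons), the most abundant of them, read 172, 290, 614 and 320 CPM in sham and 61.2, 304, 203 and 190 CPM in BCAS mice. BCAS mouse 1 lay below every sham mouse, and the other 3 BCAS mice lay among them. The log2 fold change was -0.88 (SE 0.49, adjusted p = 0.183, edgeR), and -0.46 (SE 0.47) without sham mouse 3. Egr4 (ENSMUSG00000071341.4, chr6:85511121-85513589, minus strand, 2 exons) gave nearly the same estimate, -0.88 (SE 0.55, adjusted p = 0.238, edgeR), from 29.2 to 108 CPM in sham and 8.26 to 58.4 CPM in BCAS mice. Without sham mouse 3 it was -0.41 (SE 0.53).

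Egr2 (ENSMUSG00000037868.15, chr10:67535475-67542188, plus strand, 5 exons), also called Krox20 and known for its role in peripheral myelin as well as for its induction by neuronal activity, had the widest spread of the 10 genes among the sham mice. Its level was 1.19, 8.05, 46.6 and 4.83 CPM in sham and 9.28, 18.1, 11.7 and 11.0 CPM in BCAS mice. The 4 BCAS mice lay close together, above sham mice 1, 2 and 4 and below sham mouse 3. The log2 fold change was -0.28 (SE 0.85, adjusted p = 0.817, edgeR), but it was 1.41 (SE 0.54, adjusted p = 0.0868) without sham mouse 3 and 0.81 by limma-voom. With the libraries scaled by pan-neuronal genes it was 0.38, where the median of all genes was 0.80. The direction of Egr2 therefore depended on 1 library and on the test. Sham mouse 1 held 21 read pairs of Egr2 and sham mouse 3 held 815.

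Nr4a1 and Nr4a3 encode orphan nuclear receptors, which bind the NGFI-B site without a known physiological ligand. Nr4a1 (ENSMUSG00000023034.7, chr15:101254269-101274795, plus strand, 10 exons) read 46.4, 101, 269 and 74.7 CPM in sham and 22.8, 122, 83.7 and 77.2 CPM in BCAS mice. BCAS mice 2, 3 and 4 thus lay within the sham range and BCAS mouse 1 below it. The log2 fold change was -0.68 (SE 0.59, adjusted p = 0.390, edgeR), and 0.04 (SE 0.50) without sham mouse 3. Nr4a3 (ENSMUSG00000028341.9, chr4:48045153-48086447, plus strand, 9 exons) read 15.9, 17.8, 64.3 and 18.0 CPM in sham and 10.7, 28.2, 24.5 and 24.2 CPM in BCAS mice. Sham mice 1, 2 and 4 lay close together, and BCAS mice 2, 3 and 4 lay above them. With sham mouse 3 the log2 fold change was -0.41 (SE 0.49, adjusted p = 0.542, edgeR), and without it 0.34 (SE 0.30, adjusted p = 0.409).

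Arc (ENSMUSG00000022602.14, chr15:74669083-74672570, minus strand, 3 exons) encodes a capsid-like protein at the synapse that drives the uptake of AMPA receptors, and is the 1 gene of the 10 that does not encode a transcription factor. Its level was 112, 239, 521 and 190 CPM in sham and 22.1, 233, 135 and 121 CPM in BCAS mice. BCAS mice 2, 3 and 4 lay within the sham range, and BCAS mouse 1 lay below the lowest sham mouse. Its log2 fold change was -1.05 (SE 0.64, adjusted p = 0.227, edgeR), and -0.50 (SE 0.63) without sham mouse 3. Within the BCAS group Arc varied more than any other of the 10 genes, 10.5-fold from the lowest to the highest mouse. Per kilobase of exon, where genes can be compared, Arc had the highest mean level in sham mice (86.9 RPKM). Egr1 (77.8), Junb (53.0), Nr4a1 (34.9), Egr4 (27.4) and Fos (23.8) followed, then Npas4 (12.4), Nr4a3 (4.84), Egr2 (4.46) and Fosb (3.29), all in RPKM. For all 9 pairs of neighbours in this order the ranges of the sham mice overlapped. Compared within each mouse, 4 of the 9 pairs kept their order in all 4 sham mice, namely Egr1 above Junb, Junb above Nr4a1, Egr4 above Fos and Npas4 above Nr4a3. The other 5 pairs did not, Arc and Egr1 among them.

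**Figure D2:**
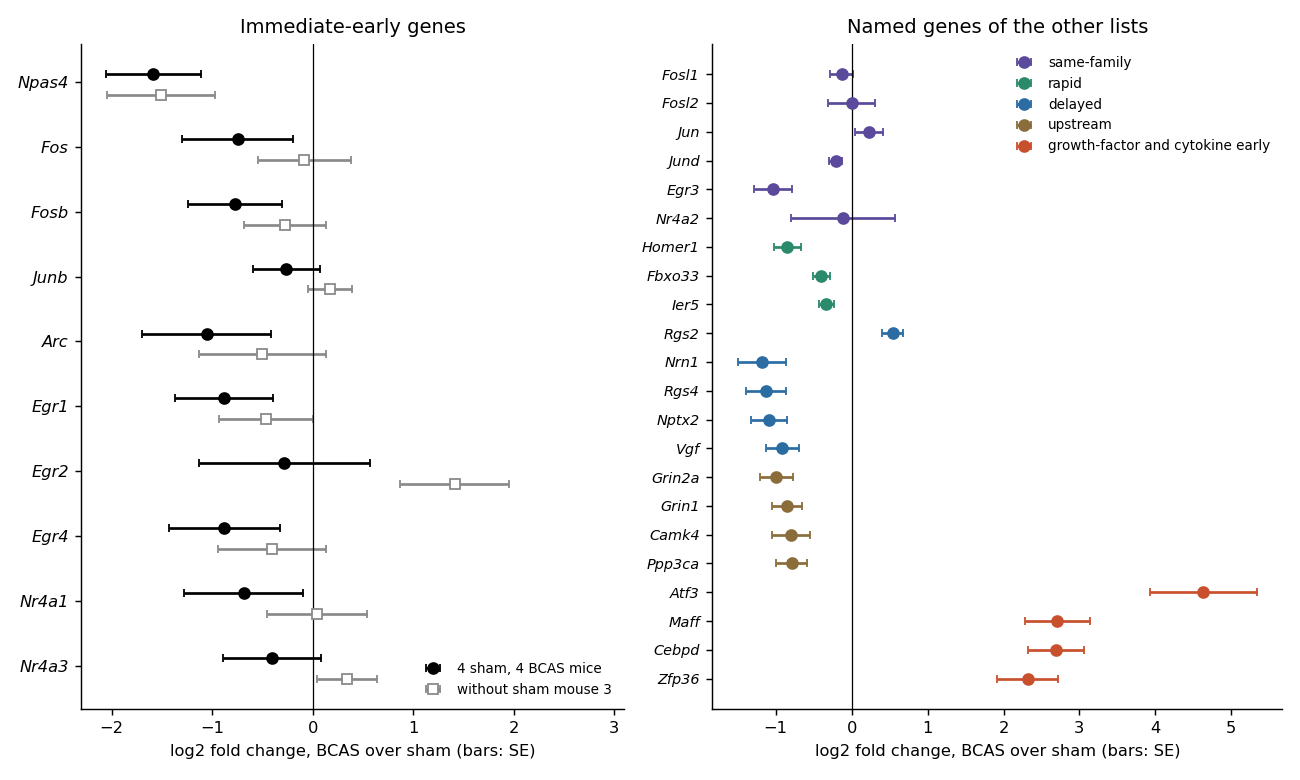
Log2 fold changes of BCAS over sham with their SE as bars, on the left for the 10 immediate-early genes from all 8 mice (filled circles) and without sham mouse 3 (open squares), on the right for the named genes of the other lists, coloured by list. Without sham mouse 3 the estimate of Npas4 stays at -1.51, whereas that of Egr2 moves from -0.28 to 1.41.

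The plot of log2 fold changes with and without sham mouse 3 shows how much of the comparison depended on that library. With it removed, the median log2 fold change of the 10 genes was -0.18 rather than -0.76, beside 0.00 over all tested genes. In that fit 0 of the 10 passed in either direction by edgeR, where 8.21% of all genes were lower and 15.3% higher. At an unadjusted p under 0.05, Npas4 was lower and Egr2 higher (1 gene each). The share of all genes at that limit was not counted in this fit, and it was 46.2% with all mice. Junb, Egr2, Nr4a1 and Nr4a3 had estimates above 0, while Npas4, Fos, Fosb, Arc, Egr1 and Egr4 stayed below 0. When each of the other 7 mice was left out, the median reached its lowest value of -1.13 without BCAS mouse 2.

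The 10 genes varied widely among the sham mice, as the plot of sham spread against mean level shows. The SD of log2 CPM over the 4 sham mice ranged from 0.51 for Npas4 to 2.14 for Egr2, with a median of 0.87. Over all tested genes the median was 0.16, and over the 10941 genes of at least 10 CPM it was 0.11. The SD expected from counting error alone was 0.02 to 0.16 for the 10 genes. For Npas4, the steadiest, 1.42% of the genes of at least 10 CPM had a larger sham SD, and for Egr2 0.00914% had. From the lowest to the highest sham mouse, Egr2 differed 39.1-fold, Fos 7.37-fold, Nr4a1 5.78-fold and Npas4 2.15-fold. Without sham mouse 3 the median SD of the 10 genes was 0.52, beside 0.13 over all tested genes, so that the remaining 3 sham mice still differed. Nr4a3 then had an SD of 0.10, while Egr2 kept 1.37. In BCAS mice the median SD of the 10 genes was 0.89, beside 0.27 over all genes. The sham SD was the larger of the pair for 6 of the 10, against 30.1% of all genes, but without sham mouse 3 this was so for 3 of the 10, against 24.2% of all genes.

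**Figure D3:**
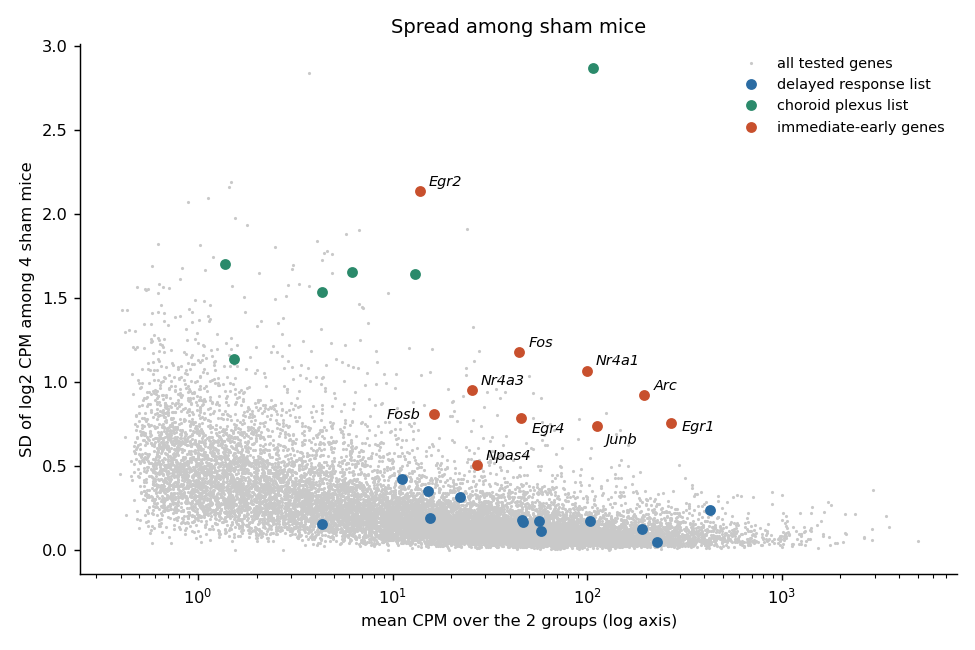
SD of log2 CPM among the 4 sham mice (vertical axis) against mean CPM (log axis) for all tested genes (grey), the delayed response list (blue), the choroid plexus list (green) and the 10 immediate-early genes (orange, named). The immediate-early genes lie between 0.51 and 2.14, above the delayed genes at 0.05 to 0.42.

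The 10 genes kept nearly 1 order of mice. Sham mouse 1 was the lowest sham mouse for all 10, and sham mouse 3 the highest for 9, the exception being Npas4. Both held for 9 of 10 genes, against 10.6% of all tested genes. In BCAS mice, mouse 2 was highest and mouse 1 lowest for all 10, against 26.6% of all genes. Relative to the sham average, the mean log2 level of the 10 genes was -1.07, -0.02, 1.26 and -0.17 in the sham group and -1.78, 0.23, -0.47 and -0.53 in the BCAS group. The summed level was 2045 CPM in sham mouse 3 and 489 CPM in sham mouse 1, while BCAS mice ran from 244 to 996 CPM. Among BCAS mice the order went with the markers of cell types, since mouse 1 was lowest for 14 of 14 pan-neuronal genes and highest for 11 of 11 microglia and macrophage genes, and mouse 2 was highest for 13 of 14 pan-neuronal genes and lowest for 11 of 11 microglial genes. Among sham mice the mean log2 level of the pan-neuronal markers was 0.06, 0.02, -0.09 and 0.00 in mice 1 to 4, another order than that of the 10 genes. The hippocampus list (5 tested genes) gave -0.27, 0.09, 0.18 and 0.00, and the choroid plexus list gave -1.06, -0.22, 2.32 and -1.04. Both lists rank the 4 sham mice as the mean of the 10 genes does, the first over a narrower and the second over a wider range. Among the 5 hippocampal genes mouse 1 was lowest and mouse 3 highest for 3, while mouse 3 was lowest for Prox1 and Zbtb20. Among the 6 choroid plexus genes mouse 3 was highest for 6, and mouse 1 was lowest for 2. The striatum list gave -0.45, 0.58, 0.01 and -0.13, with mouse 1 lowest for 7 of 8 genes and mouse 2 highest. The part of these regional markers in the order of the sham mice was not tested.

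**Figure D4:**
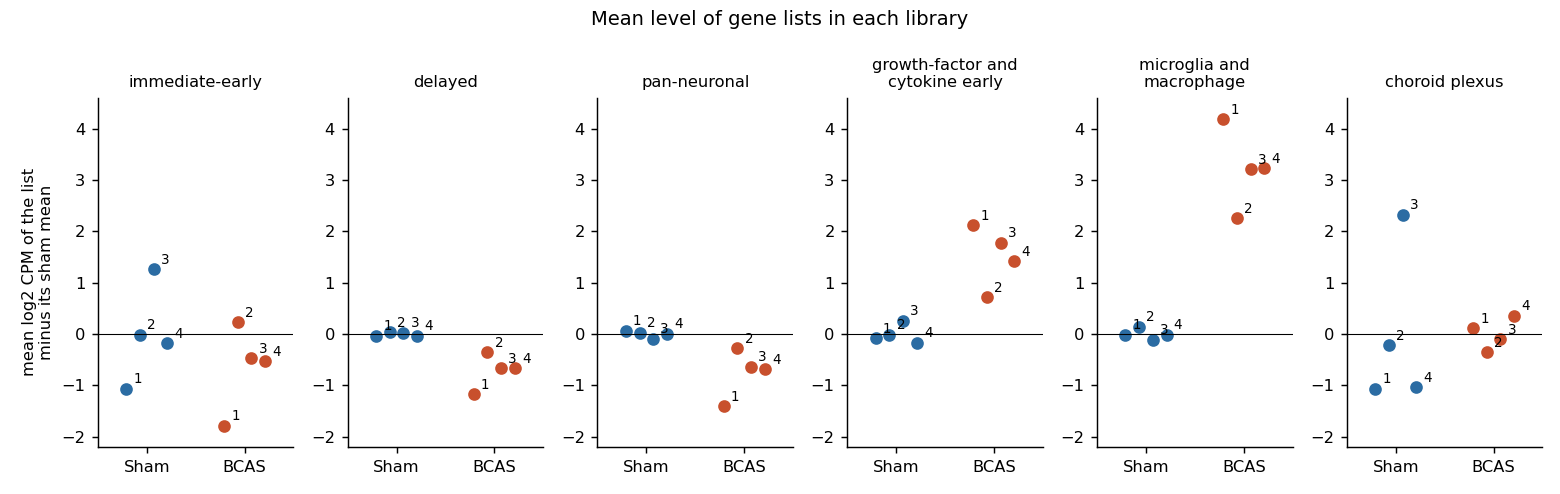
Mean log2 CPM of 6 gene lists in each library, minus the sham mean of the list, with 1 numbered point per mouse (sham blue, BCAS orange). The sham points of the immediate-early list span -1.07 to 1.26, whereas those of the pan-neuronal list lie between -0.09 and 0.06 and those of the choroid plexus list reach 2.32 in mouse 3.

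To set the genes against neuronal RNA as a whole, each level was also taken relative to the mean log2 level of 14 pan-neuronal genes in the same library. On this scale 4 of the 10 genes had a lower and 6 a higher mean in BCAS than in sham mice, and all 10 overlapped between the groups. The shares of all genes were not counted on this scale. These are differences between means of log2 levels, which are not the estimates of the fit with libraries scaled by these genes. Fos, Fosb and Nr4a1 were above 0 here (0.22, 0.02 and 0.16) but below 0 in that fit, where 3 of the 10 were above 0. Npas4 was lower by a mean log2 difference of -1.04, with sham mice at -0.80, 0.07, 0.37 and 0.36 around their mean and BCAS mice at -1.71, -0.24, -1.17 and -1.04. The fit with libraries scaled by these genes gave a log2 fold change of -1.02 (SE 0.36, adjusted p = 0.0335, edgeR). In that fit the median of all genes moved to 0.80, 0.309% of all genes were lower and 61.6% higher at the adjusted p, and the median of the 10 genes was -0.15. Arc had a mean difference of -0.49, Egr1 of -0.19 and Egr4 of -0.25, while Egr2 had 1.55, Junb 0.62 and Nr4a3 0.54. None of these 6 passed the test in the scaled fit.

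**Figure D5:**
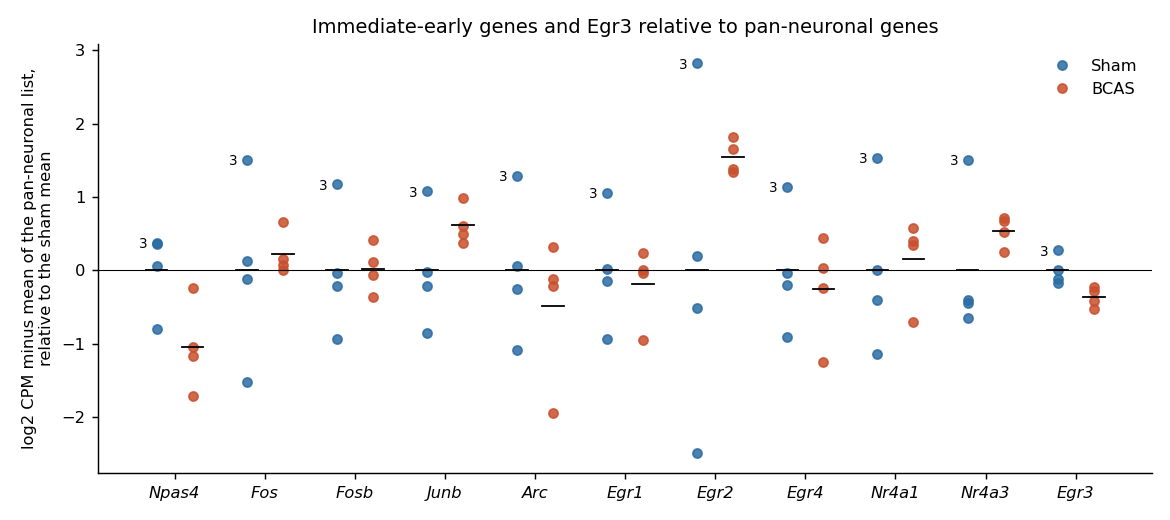
Log2 CPM of each gene minus the mean of the pan-neuronal list in the same library, relative to the sham mean, for the 10 immediate-early genes and Egr3 (sham blue, BCAS orange, lines for means, sham mouse 3 marked). The BCAS points of Npas4 lie at -1.71 to -0.24 and those of Egr2 at 1.34 to 1.82.

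The same families hold 6 further genes, of which 1 was lower, 0 were higher and 5 did not pass, a share of lower genes near the 12.8% of all genes. At an unadjusted p under 0.05 these were 2 lower and 0 higher, where 46.2% of all genes passed, both directions counted. DESeq2 placed 1 lower and 0 higher after adjustment. The 1 that passed was Egr3, a close relative of Egr1 that is induced later and in part by it. Its level was 210, 187, 226 and 178 CPM in sham and 52.4, 140, 96.3 and 102 CPM in BCAS mice, so that every BCAS mouse lay below every sham mouse. The log2 fold change was -1.04 (SE 0.25, adjusted p = 0.0172, edgeR), which is 2.05-fold lower, and the sham SD of 0.16 was below that of each of the 10 genes. By edgeR the estimate was -0.98 (adjusted p = 0.0427) without sham mouse 3 and -1.02 (adjusted p = 0.0505) without sham mouse 1. With libraries scaled by pan-neuronal genes it was -0.37 (adjusted p = 0.0579, edgeR). Relative to those genes the 4 BCAS mice still lay below the 4 sham mice. The AP-1 genes Fosl1, Fosl2, Jun and Jund gave log2 fold changes of -0.13, -0.00, 0.22 and -0.21, and the nuclear receptor gene Nr4a2 gave -0.12 (SE 0.68). Without sham mouse 3 the edgeR count of these 6 was 1 lower (Egr3) and 1 higher (Jun), where 8.21% and 15.3% of all genes were. With pan-neuronal scaling, under which the median of all genes was 0.80, the estimates of Fosl1, Fosl2, Jund and Nr4a2 lay above 0, and Jun and Jund passed as higher. Nr4a2 ranged from 14.5 to 66.9 CPM in sham and from 8.40 to 75.5 CPM in BCAS mice.

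Other genes of the response were taken from lists by their role. Among 22 further rapid genes, 3 were lower, 0 higher and 19 did not pass, a share of lower genes near the 12.8% of all tested genes, and their median log2 fold change was -0.01. At an unadjusted p under 0.05 they were 4 lower and 2 higher, where 46.2% of all genes passed, both directions counted. DESeq2 placed 4 lower and 2 higher after adjustment. The 3 lower by edgeR were Homer1, the synaptic scaffold gene, with -0.85 (SE 0.18), Fbxo33, a ubiquitin ligase subunit gene, with -0.40 (SE 0.11), and Ier5, a regulator of the heat shock response, with -0.33 (SE 0.09). Counts cover all exons of a gene, so short and long transcripts of Homer1 were not told apart. Each of the 3 genes had all BCAS mice below all sham mice. Homer1 passed the edgeR test in 8 of 8 fits that lacked 1 mouse, Fbxo33 in 2 (highest adjusted p = 0.0701, without BCAS mouse 4) and Ier5 in 3 (highest adjusted p = 0.0746, without BCAS mouse 4). With library size alone as the scale the adjusted p by edgeR was 0.0569 for Fbxo33 and 0.0678 for Ier5. The median sham SD of this list was 0.39, between that of the 10 genes and that of all genes. Without sham mouse 3 the edgeR count was 2 lower and 3 higher, against 8.21% and 15.3% of all genes. With pan-neuronal scaling 0 of the 22 were lower by edgeR, at an unadjusted p under 0.05 as well, and 10 were higher, against 0.309% and 61.6% of all genes in that fit. The list's median was then 0.79 and that of all genes 0.80, and the estimates of Fbxo33 and Ier5, like most genes, lay above 0.

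The delayed genes, which the early factors switch on and which mostly encode secreted or signalling proteins, were steadier between sham mice. Of 13, 7 were lower in BCAS mice, 1 was higher and 5 did not pass, where 12.8% of all genes were lower and 19.2% higher. Their median log2 fold change was -0.82. Nrn1, the gene of the membrane-anchored growth factor neuritin, read 120 to 159 CPM in sham and 27.3 to 92.3 CPM in BCAS mice (log2 fold change -1.18, SE 0.31, adjusted p = 0.0231, edgeR). Rgs4, a brake on G-protein signalling, changed by -1.13 (SE 0.27), Nptx2, which clusters AMPA receptors, by -1.09 (SE 0.23), and Vgf, the gene of a secreted neuropeptide precursor, by -0.91 (SE 0.22). Rgs2 was the 1 gene of this list that was higher, with a log2 fold change of 0.54 (SE 0.14, adjusted p = 0.0197, edgeR). Over the 11 other settings with all mice, Nrn1 and Rgs4 passed in 11 and Rgs2, Nptx2 and Vgf in 10. The highest adjusted p-values, by the test of each setting, were 0.0556 for Rgs2, 0.0674 for Nptx2 and 0.112 for Vgf. In the fits that lacked 1 mouse, Nptx2 passed the edgeR test in 8 of 8, Rgs4 in 7 (adjusted p = 0.0506 without sham mouse 1), Vgf in 7 (0.0511 without sham mouse 2), Rgs2 in 6 (0.0617 and 0.0591 without sham mice 1 and 4) and Nrn1 in 4 (highest value 0.0641, without sham mouse 1). The median sham SD of the list was 0.18 against 0.87 for the 10 immediate-early genes, and the mean log2 level of the list lay between -0.03 and 0.04 in the 4 sham mice, relative to their average. Without sham mouse 3 the count was 3 lower and 1 higher, where 8.21% and 15.3% of all genes were, with a median of -0.76. With pan-neuronal scaling it was 2 lower and 1 higher, where 0.309% and 61.6% of all genes were, and the median was -0.13, below the 0.80 of all genes.

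Upstream of these genes lie the receptors, kinases and factors that relay calcium to the nucleus. Of 23, 9 were lower, 0 higher and 14 did not pass, where 12.8% of all genes were lower and 19.2% higher. Their median log2 fold change was -0.27. At an unadjusted p under 0.05, 11 were lower and 1 higher, where 46.2% of all genes passed, both directions counted. DESeq2 placed 11 lower and 1 higher. The largest decreases were those of Grin2a and Grin1, subunits of the NMDA receptor, with -0.99 (SE 0.22) and -0.85 (SE 0.20), Camk4, a nuclear calcium kinase gene, with -0.80 (SE 0.25), and Ppp3ca, the catalytic subunit of calcineurin, with -0.79 (SE 0.21). Grin2a passed the edgeR test in 8 of 8 fits that lacked 1 mouse, Grin1 in 7 (adjusted p = 0.0527 without sham mouse 1), Ppp3ca in 3 (highest value 0.0641) and Camk4 in 2 (highest value 0.0972), both values without sham mouse 1. With library size alone the adjusted p of Camk4 was also 0.0527 by edgeR. Creb1 and Srf, the genes of CREB and serum response factor, were named for their role after their values were seen. Neither passed, with log2 fold changes of 0.13 (SE 0.08) and -0.17 (SE 0.10). Without sham mouse 3 the count was 4 lower and 1 higher, against 8.21% and 15.3% of all genes. With libraries scaled by pan-neuronal genes 0 of the 23 were lower by edgeR, at an unadjusted p under 0.05 as well, and 12 were higher, where 61.6% of all genes were. The list's median was then 0.49, below the 0.80 of all genes.

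Early genes that growth factors and cytokines switch on in many cell types went the other way. Of 13, 8 were higher, 0 lower and 5 did not pass, where 19.2% of all genes were higher and 12.8% lower. Their median log2 fold change was 1.36. At an unadjusted p under 0.05 they were 11 higher and 0 lower, where 46.2% of all genes passed, both directions counted. Atf3, a stress-induced factor of the CREB family, read 0.181 to 1.26 CPM in sham and 4.89 to 38.1 CPM in BCAS mice. Its log2 fold change was 4.63 (SE 0.70, adjusted p = 0.00343, edgeR). Maff, a small Maf factor, was higher by 2.71 (SE 0.43), Cebpd, a factor of acute-phase genes, by 2.69 (SE 0.37), and Zfp36, which destabilises cytokine mRNAs, by 2.32 (SE 0.40). DESeq2 placed 10 higher and 0 lower, and without sham mouse 3 edgeR placed 9 higher and 0 lower, where 15.3% and 8.21% of all genes were. With pan-neuronal scaling 13 of 13 were higher by edgeR, where 61.6% of all genes were. The list's median was then 2.29, above the 0.80 of all genes. Within the BCAS group Atf3, Maff, Cebpd and Zfp36 were highest in mouse 1 and lowest in mouse 2, whereas the 10 immediate-early genes were lowest in mouse 1 and highest in mouse 2. The microglia and macrophage markers were also highest in mouse 1 and lowest in mouse 2, as given above, and their part in this was not tested.

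Outside the 10 genes, the pattern over the 8 libraries most like their average was that of Dusp1, a phosphatase gene that shuts off MAP kinases and is itself an immediate-early gene. The measure was the root-mean-square difference between centred log2 CPM values over the 8 libraries, which was 0.19 for Dusp1 and had a median of 0.87 over 15864 genes of at least 1 CPM. Dusp1 read 32.4, 66.3, 113 and 43.3 CPM in sham and 15.2, 67.6, 47.4 and 37.3 CPM in BCAS mice. Others among the closest 8 were Acp7 (0.25), Spink10 (0.26), Nek10 (0.28), Dcaf12l2 (0.29), Trim71 (0.30) and 1700016P03Rik (0.33), most of them at low levels. Over the 4 sham mice alone, 2 of the 8, Acp7 and Nek10, stayed among the closest 8, and Dusp1 ranked 25. The others closest there were Ripk4, Drc7, Slc29a4, Igsf1, Atp6v1c2 and Htr2c. Of these, Htr2c read 25.7 CPM in sham mouse 1 and 113 CPM in sham mouse 3. Of the 10 genes themselves Fosb (0.12), Nr4a1 (0.19), Fos (0.24) and Egr1 (0.24) lay closest to the average pattern, which they are part of, and Npas4 (0.73) and Egr2 (1.07) lay farthest from it.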

How the data were processed

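RNA of the right cortex of 8 mice was sequenced as paired reads, 1 library per mouse. Per the labels and the file headers, the authors trimmed reads with Trim Galore, aligned them with HISAT2 to mm10, used SAMtools 1.9, and deposited counts of read pairs per gene, summed over exons by featureCounts. The headers name version 2.0.1 of featureCounts and GENCODE vM20, the labels name version 1.6.3. No option for strand was set, so reads of overlapping genes on opposite strands were not told apart. Coordinates come from the deposited tables (mm10), and symbols from GENCODE vM21 by gene identifier (54723 of 54752 matched).

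From the raw counts, genes were kept by edgeR's filterByExpr (minimum count 10) and scaled by TMM (factors 0.949 to 1.05). BCAS was compared with sham by edgeR's quasi-likelihood test (edgeR 4.0.16, R 4.3.3) with Benjamini-Hochberg adjustment over all 17136 genes kept. Log2 CPM used a prior count of 2. SEs were derived from the fold change and the F statistic. The study's methods state limma with the same limits of 0.05 and 1, and limma 3.58.1, DESeq2 1.42.0, other scalings and filters, and fits without each mouse were alternatives. The scripts were tested on simulated data. The p-values set the difference between the groups against the spread of mice within groups, and cover these 8 mice only.

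The 10 genes and all gene lists were chosen with earlier results of these data known. Named are the 10 genes, the 6 of their families, and from each other list of the response up to 4 genes with the largest increase and up to 4 with the largest decrease, at an adjusted p under 0.05 and a mean of at least 50 counts. The 8 genes most alike in pattern had a mean of at least 1 CPM. Of these, 1 is not reported here. List counts without sham mouse 3 and under pan-neuronal scaling were added after seeing the data. The labels give no batch. Lists of markers of other regions and cell types were also counted at the adjusted p, where 19.2% of all tested genes were higher and 12.8% lower. Of the tested genes, in BCAS mice 11 of 11 microglia and macrophage genes, 7 of 9 astrocyte, 3 of 8 endothelial and mural, 2 of 9 oligodendrocyte, 1 of 8 striatal, 1 of 5 hippocampal and 2 of 5 blood genes were higher, and 9 of 14 pan-neuronal, 4 of 9 excitatory and 4 of 8 inhibitory neuron genes were lower.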

Additional observations from a re-analysis of the deposited data

Results flagged for a closer look

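Among the named genes, 64 groups of 4 mice were examined for 1 mouse far from the others by Dixon's ratio, the gap to the nearest mouse divided by the range of the group, on the log2 CPM scale. In 4 groups the ratio was above Dixon's critical value for 4 values, where chance gives about 1 in 20, or 3.2 of 64, so that the number of such groups is near that of chance. Nr4a3 did so in the sham group with a ratio of 0.908, since sham mouse 3 read 64.3 CPM and the others 15.9 to 18.0 CPM. It did so in the BCAS group with a ratio of 0.843, since BCAS mouse 1 read 10.7 CPM and the others 24.2 to 28.2 CPM. On CPM without logarithms this ratio was 0.773, below the critical value, whereas the other 3 stayed above it. Fbxo33 had a ratio of 0.877 in the sham group, with 74.5 CPM in mouse 3 against 64.2 to 65.4 CPM. Maff had a ratio of 0.937 in the sham group, with 2.29 CPM in mouse 3 against 0.909 to 0.965 CPM.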

How the results depend on the processing

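Of the 10 genes, 104 of 110 estimates under other settings and 71 of 80 without 1 mouse kept their direction and their side of the threshold. Leaving out 1 mouse gave 0 to 1 of the 10 genes past the adjusted p, with or without the fold limit. In the whole table it gave 2549 to 8166 genes past the adjusted p, where all mice gave 5490. By leave-one-out, log2 fold changes ranged from -0.48 to 0.17 for Junb, -0.67 to 1.41 for Egr2, -1.002 to 0.040 for Nr4a1, -0.61 to 0.34 for Nr4a3, -0.19 to 0.43 for Fosl2 and -0.86 to 0.33 for Nr4a2, and sham mouse 3 gave each upper end. With libraries scaled by the pan-neuronal list, the estimates above 0 that had been below it were Junb 0.46, Egr2 0.38, Nr4a3 0.23, Fosl1 0.69, Fosl2 0.76, Jund 0.57, Nr4a2 0.39, Fbxo33 0.35 and Ier5 0.49. That scaling moved the median of all genes to 0.80 by construction, with 5917 genes past both limits rather than 2097 and 10603 past the adjusted p alone. Limma-voom gave 0.81 for Egr2 and 0.11 for Fosl2, and limma on log2(CPM + 1) gave 0.61 and 0.11. Fosl2 also gave 0.078 with library size alone and 0.016 with at least 10 counts in every library. For the reversals of Egr2 and Fosl2 under these last settings the cause was not tested. Replicate numbers do not pair the mice (correlations of same-numbered deviations -0.103 to 0.00126). With the replicate number as a block, 3546 genes passed the adjusted p, Egr2 gave 0.77, Fosl2 0.12 and Npas4 -1.80 (edgeR adjusted p = 0.0175), and the median of the 10 genes was -0.66. The lowest count of the 10 genes in any library was 21.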
